A study of Mus musculus with 4 samples.

Results

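The NKR-P1, NKG2 and Klrg1 lectin receptors were followed here as 10 genes, Klrb1a, Klrb1b, Klrb1c, Klrc1, Klrc2, Klrd1, Klre1, Klrg1, Klri2 and Klrk1, taken by name from the 14697 genes counted in single cells of mouse blood, and all 10 were listed. They code for C-type lectin-like proteins of the lymphocyte surface. Natural killer (NK) cells and some T cells use such receptors to read ligands on other cells, and the balance of activating and inhibitory receptors sets whether a target is killed. Some NKR-P1 receptors (Klrb1 genes) bind Clr proteins, as that of Klrb1b binds Clr-b. CD94 (Klrd1) pairs with NKG2A (Klrc1), which inhibits, or NKG2C (Klrc2), which activates, and both pairs bind the MHC class Ib molecule Qa-1. NKG2D (Klrk1) binds stress-induced ligands, Klre1 pairs with Klri1 or Klri2, and Klrg1 is an inhibitory receptor for cadherins that marks mature NK cells and differentiated effector T cells.

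Blood came from C57BL/6 females of 4 months (young) and 24 months (old), with no other treatment or allele, and each of the 2 samples per age was a pool of 2 mice. The pool was therefore the replicate, and mice within it cannot be told apart. Mononuclear cells were separated on a density gradient, red cells were lysed, and 3′ libraries were counted by unique molecular identifiers (UMIs) on a droplet platform. The 14588 cells held between 9521253 and 18658072 UMIs per pool, with a median of 2233 to 2332 UMIs per cell in the young and 3186.5 to 3482 in the old pools.

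Cells were gated on raw marker UMIs that none of the 10 receptors set. NK cells had at least 3 UMIs of Nkg7, a granule gene, 0 of Cd3d, Cd3e and Cd3g and at most 1 of the B cell genes Cd79a, Cd79b and Ms4a1. There were 123 and 135 of them in the young pools and 48 and 25 in the old pools, or 3.15% and 3.50% of all cells in the young pools against 1.03% and 1.14% in the old pools. Ncr1, which codes for the NK receptor NKp46, had a UMI in 76.3% to 88.0% of them, and all 6 NK markers looked for were found in every pool. T cells had at least 2 Cd3 UMIs, and were split by co-receptor and by a gene that sets memory-like cells apart from naive-like cells. Ccl5, a chemokine gene, gave 364 Ccl5-high (at least 5 UMIs) and 345 Ccl5-low Cd8 T cells. S100a6, a calcium-binding protein gene, gave 74 S100a6-high (at least 2 UMIs) and 346 S100a6-low Cd4 T cells. T cells without a UMI of either co-receptor (double-negative) included 353 with at least 2 Nkg7 UMIs and 821 below, and can hold cells whose co-receptor was missed.

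Haemoglobin and platelet UMIs moved with the pools. In the NK gate the 4 haemoglobin genes summed to between 6971 and 42282 CPM (counts per 1000000, a gene's UMIs scaled to that total in the gate) in the young and between 23804 and 94172 in the old pools. The 3 platelet genes summed to 9.87 and 10.6 CPM in the young and 173 and 1121 CPM in the old pools. The 7 T cell markers listed summed to between 61.6 and 142 CPM in it and the 3 B cell markers to between 123 and 166 CPM. The gate sets Cd3d, Cd3e and Cd3g to 0 and allows at most 1 B cell UMI, so both sums were limited in advance. The 3 basophil markers were at 0 in both old pools. The 4 monocyte markers summed to 1099 and 1751 CPM in the young and 1297 and 1072 CPM in the old pools, but Lyz2, a lysozyme gene of myeloid cells, had a UMI in 14.6% and 25.2% of NK cells in the young pools against 56.2% and 56.0% in the old pools. Csf1r, the monocyte gating gene, had one in at most 4.00% of them. Among barcodes, 108 occurred in 2 libraries, none of them as an NK cell in both. The part of these values in the results was not tested, beyond the alternatives without platelet droplets and without haemoglobin genes.

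All 10 genes lie on chromosome 6 in GENCODE M21 (build GRCm38, of which the mm10 reference of the files is the same assembly). Klrg1 stands apart (122270596 to 122282882, minus strand). The other 9 genes lie within 1131 kb of the natural killer gene complex, from Klrb1a (start 128609227) to Klri2 (end 129740484). Klrb1c (128778485 to 128789215) and Klrb1b (128813706 to 128826331) follow Klrb1a on the minus strand. Klre1 (129577905 to 129585827) and Klrd1 (129591782 to 129598775) are on the plus strand, 5.95 kb apart. Klrk1 (129610323 to 129623864), Klrc2 (129647496 to 129660689), Klrc1 (129666015 to 129678973) and Klri2 are on the minus strand.

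Because counting read the 3′ end, sequence shared there can affect the counts of related genes. Of the 541 stretches of 60 bases in the last 600 bases of a transcript, Klrc1 shared up to 106 with Klrc2, and Klrc2 shared up to 146 with Klrc3, a gene that is not listed in the counts. Klrb1a shared up to 69 with Klrb1c and 23 with Klrb1b, and Klrb1b shared up to 46 with Klrb1c. Klrd1, Klre1, Klrg1, Klri2 and Klrk1 shared none with the other Klr, Clec and Cd69 genes compared. How reads from the shared stretches were counted for Klrc1 and Klrc2, and for the Klrb1 genes, is therefore uncertain.

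RefSeq promoters (GRCm38.p6) were found for 7 of the 10 genes. The 250 bases before the start are shown for Klrb1a, Klrc1 and Klrk1, 1 gene of each of 3 receptor groups, for which none of these bases lies in an annotated exon of the 10 genes. That of Klrb1a lies within its longest annotated span, since its RefSeq start is inside the GENCODE gene. Capitals mark TGTGGT or its reverse complement ACCACA, the core word of RUNX factors, which are known regulators in NK and Cd8 T cells.

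Klrb1a, chr6:128622935-128623184, minus strand: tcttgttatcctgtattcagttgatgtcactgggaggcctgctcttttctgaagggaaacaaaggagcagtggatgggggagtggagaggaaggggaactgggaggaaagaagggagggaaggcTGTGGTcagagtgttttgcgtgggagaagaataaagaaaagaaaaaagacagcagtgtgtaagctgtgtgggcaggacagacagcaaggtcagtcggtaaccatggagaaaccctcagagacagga

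Klrc1, chr6:129678974-129679223, minus strand: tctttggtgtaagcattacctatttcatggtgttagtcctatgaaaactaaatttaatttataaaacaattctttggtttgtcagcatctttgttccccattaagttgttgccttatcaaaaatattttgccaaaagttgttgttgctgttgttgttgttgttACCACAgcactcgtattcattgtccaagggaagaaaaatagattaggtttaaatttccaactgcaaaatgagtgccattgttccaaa

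Klrk1, chr6:129623865-129624114, minus strand: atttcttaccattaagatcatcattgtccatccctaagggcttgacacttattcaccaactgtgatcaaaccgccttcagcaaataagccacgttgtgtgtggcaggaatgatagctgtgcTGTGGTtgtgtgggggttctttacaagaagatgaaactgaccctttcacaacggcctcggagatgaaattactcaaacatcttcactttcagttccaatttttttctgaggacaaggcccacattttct

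The RUNX word occurred on either strand in 6 of the 7 promoters (Klrb1a, Klrb1c, Klrc1, Klrc2, Klre1 and Klrk1, in at least 1 entry each), and in 14.2% of the 27025 promoters of the same length. The T-box word TCACAC occurred in 1 of 7 (Klre1, in entry 2 only), against 12.2% of all promoters, and the ETS word GGAAGT in 2 of 7 (Klrb1b and Klrb1c), against 20.0%. All entries of a receptor were searched, but only the first entry of each gene for the share over all promoters. No receptor had the T-box word in its first entry. All 250 bases of Klre1 lay in annotated exons, as did 93 of those of Klrc2 in entry 1, with both of its RUNX words. A match is a description of letters and not of a bound site. The Klrb1a and Klrb1c promoters were the most alike of the 7, with 65.5% identity over 287 aligned columns.

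The question asked of the gates was which lymphocytes of blood carry each receptor mRNA. Over the 9 gates that do not overlap, each of the 10 genes had its highest mean level over pools in NK cells. In B cells, which should lack these receptors and served as the background of free RNA, the share of cells with a UMI was at most 2.96% in any pool (Klrd1). Median depth was 2107 UMIs in NK and 2438 in B cells. Values are given for young pools 1 and 2 and then old pools 1 and 2.

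**Figure D1:**
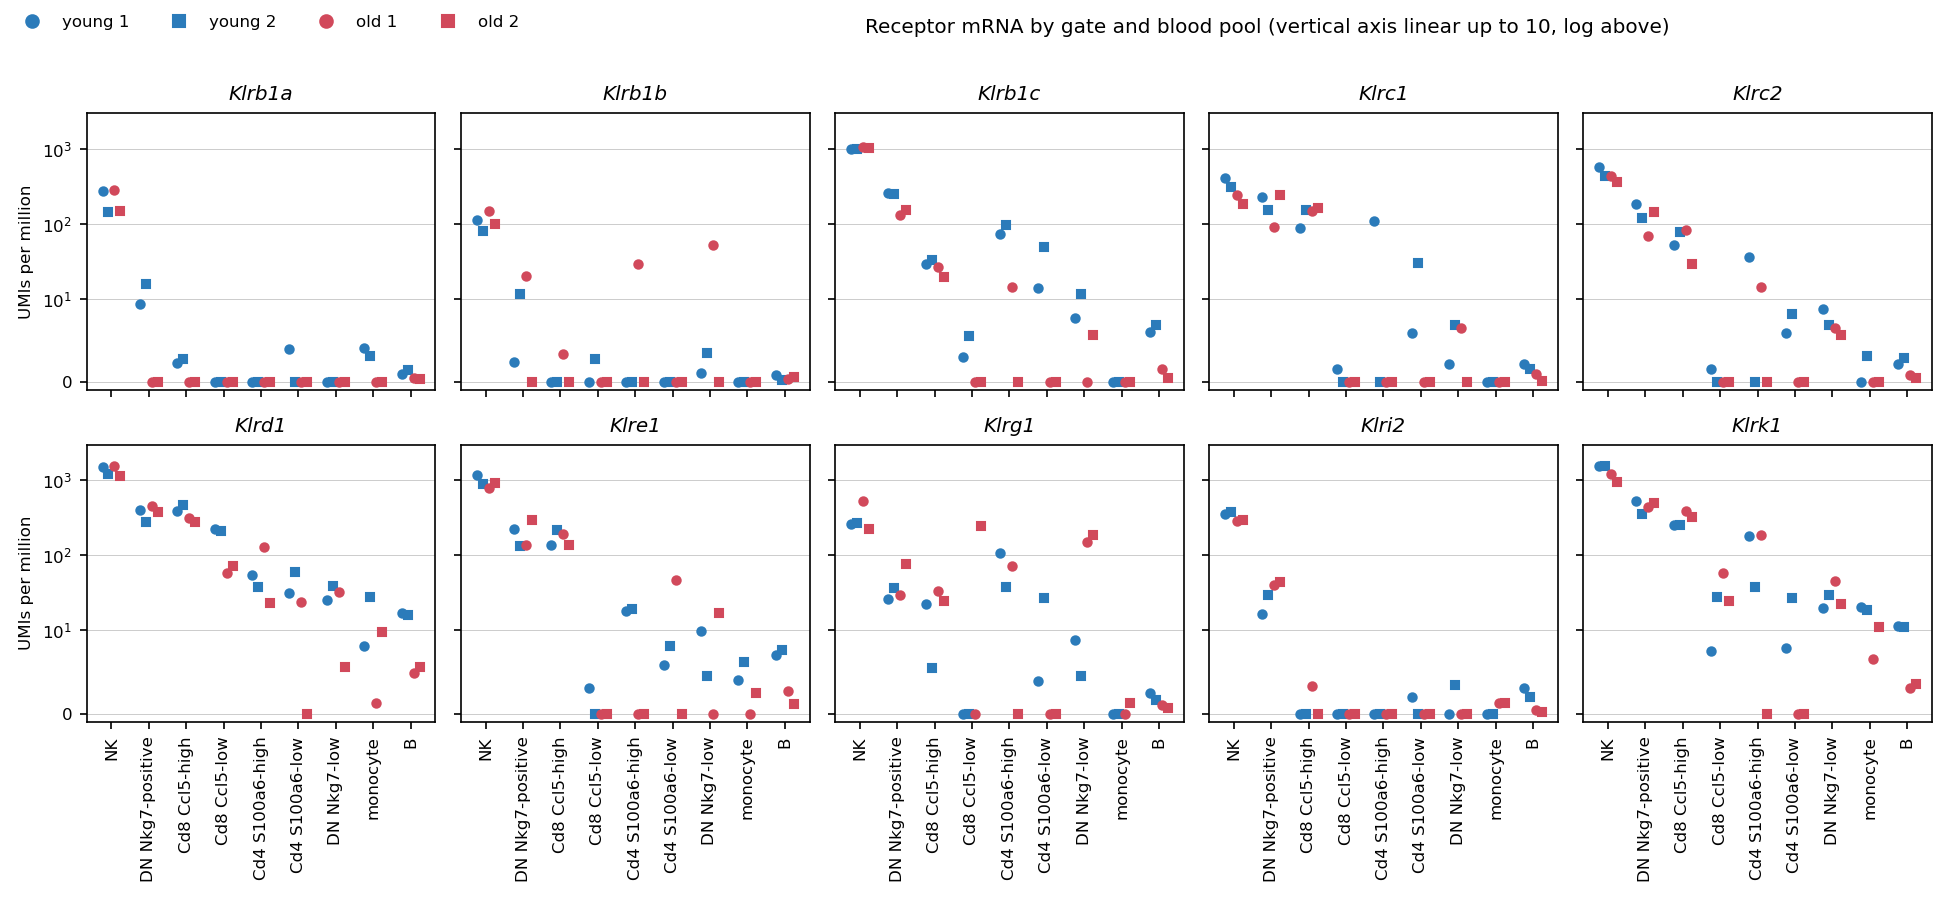
Level of each receptor in 9 gates, in CPM on an axis that is linear up to 10 and logarithmic above. Each point is a pool (blue young, red old, circle 1, square 2), and every gene has its points at the left, in NK cells, above those in B cells at the right.

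Among the NKR-P1 genes, Klrb1c codes for NK1.1, the activating receptor used to sort NK cells in this strain. It stood at 979 and 994 CPM in young and 1043 and 1010.5 CPM in old NK cells. Both old pools were higher than both young ones, by a small margin. A UMI was found in 83.7%, 83.0%, 81.2% and 88.0% of NK cells.

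In Nkg7-positive double-negative T cells Klrb1c had 256 and 248 CPM in young and 129 and 153 CPM in old pools. The old pools lay below the young ones there. In Ccl5-high Cd8 T cells it was between 19.6 and 33.0 CPM, and in Ccl5-low Cd8 T cells only 4 UMIs were counted. T cells with a Klrb1c UMI, among which NKT cells would be found, numbered 84 and 94 in young and 14 and 13 in old pools. Of them, 70.2% and 67.0% in the young pools and 42.9% and 69.2% in the old pools were Nkg7-positive double-negative cells.

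Klrb1a, which codes for NKR-P1A, had 276 and 145 CPM in young and 280.4 and 148 CPM in old NK cells. Pools of one age thus differed more than the ages did. Outside NK cells its UMIs were few. Of those counted in NK or T cells, 91.7% were in NK cells, and in Ccl5-high Cd8 T cells 2 UMIs were counted in all, so that NK cells were 139 times higher (exact interval 37.9 to 1158, pooled over pools, counting error only).

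Klrb1b, an inhibitory receptor for Clr-b, had 113 and 79.0 CPM in young and 149 and 98.6 CPM in old NK cells, with overlap between the ages. It had 1 UMI in all Ccl5-high Cd8 T cells. The ratio of NK to these cells was 136 (23.7 to 5424). In Nkg7-low double-negative T cells of old pool 1 it was at 51.7 CPM, with a UMI in 10.9% of 64 cells. The other 3 pools had between 0 and 3.42 CPM in that gate.

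CD94 is coded by Klrd1. Its NK level was 1516 and 1221 CPM in young and 1542 and 1146 CPM in old pools. A UMI was found in 87.4% to 96.0% of NK cells and in 56.5% to 66.9% of Ccl5-high Cd8 T cells.

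Klrd1 was also found in Ccl5-low, naive-like Cd8 T cells, in 45.9% and 44.0% of young cells (226 and 211 CPM). After each cell was thinned to 1000 UMIs these shares were 22.0% and 24.8%, against 1.05% and 1.33% of young B cells. The old pools held 5 and 13 such cells and 4 Klrd1 UMIs in all, too few for a comparison of ages.

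NKG2A, coded by Klrc1, had 414 and 313 CPM in young and 245 and 185 CPM in old NK cells. The old pools were both lower. In Ccl5-high Cd8 T cells it had 88.0, 151, 147 and 162 CPM, and in Nkg7-positive double-negative T cells between 89.2 and 241 CPM. Of 345 Ccl5-low Cd8 T cells, 1 had a UMI, so that Ccl5-high cells were 141 times higher (25.0 to 5609).

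NKG2C, coded by Klrc2, had 576 and 431 CPM in young and 429 and 357 CPM in old NK cells, again with the old pools lower, though old pool 1 was close to young pool 2. It had 29.4 to 83.7 CPM in Ccl5-high Cd8 T cells and 1 UMI in Ccl5-low ones, a ratio of 67.7 (11.8 to 2706).

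NKG2D, coded by Klrk1, had 1534 and 1540.2 CPM in young and 1200.2 and 961 CPM in old NK cells. The young pools were close to each other and both old pools were lower. In Ccl5-high Cd8 T cells the order was the other way, with 253 and 255 CPM in young and 395 and 324 CPM in old pools. In Nkg7-positive double-negative T cells the ages overlapped, between 359.5 and 533 CPM.

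Klre1 had 1170.0 and 905 CPM in young and 797 and 924 CPM in old NK cells, with overlap. Klri2, one of its partners, had 357 and 378 CPM in young and 289 and 296 CPM in old NK cells, without overlap. Klre1 reached 137 to 217 CPM in Ccl5-high Cd8 T cells, while Klri2 had 1 UMI there. The NK to Cd8 ratio of Klri2 was 457 (81.4 to 18127), and 88.3% of its UMIs in NK or T cells were in NK cells. Klri1, the other known partner of Klre1, had at most 1 UMI in the NK cells of any pool.

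Klrg1 had 258 and 273 CPM in young and 534 and 222 CPM in old NK cells. Old pool 1 stood above the other 3 pools, and old pool 2 stood below both young pools. A UMI was found in 39.0% and 32.6% of NK cells in the young pools and in 66.7% and 44.0% in the old pools. Over all T cells the share with a Klrg1 UMI was 1.91% and 1.90% in the young pools but 10.4% and 14.3% in the old pools, while the B cell share was between 0.271% and 0.420%. The T cell gates that carried it are described last.

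To compare NK cells with memory-like Cd8 T cells of the same blood, UMIs were added up by pool and gate, and edgeR's quasi-likelihood test was run with pool as a block over genes with a UMI in at least 10% of the cells of either gate. Of the 10 receptors, 5 reached that share in both gates, and all 5 were called higher in NK cells, where 21.7% of the 3487 genes tested were called in either direction. The log2 difference was 2.58 ± 0.21 (SE) for Klrc2 (adjusted p = 4.3e-13), 2.18 ± 0.17 for Klre1, 1.84 ± 0.16 for Klrk1, 1.60 ± 0.15 for Klrd1 and 0.89 ± 0.21 for Klrc1 (adjusted p = 0.0011), each from 4 pools per gate. The inhibitory Klrc1 thus had a smaller fitted difference than the activating Klrc2. The test of the difference between the 2 genes was not run, and their 3′ ends are partly shared. The call of Klrc1 was lost with DESeq2 (adjusted p = 0.086) and without young pool 1 (log2 0.49, adjusted p = 0.19). The other 5 receptors passed the 10% limit through NK cells alone, so their calls carry no weight beyond the levels above. For Klrb1c the pooled ratio was 35.3 (25.4 to 50.5) and for Klrg1 it was 14.6 (9.77 to 22.6).

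Between Ccl5-high and Ccl5-low Cd8 T cells, 4.24% of 3421 genes were called. Klrd1, the single receptor above 10% in both gates, was called higher in Ccl5-high cells by 1.07 ± 0.21 on the log2 scale (adjusted p = 2.3e-05), a call that was lost when cells were thinned (adjusted p = 0.20). Klrc1, Klrc2, Klre1 and Klrk1 passed through the Ccl5-high gate alone. Klrk1 had 389 UMIs in Ccl5-high and 17 in Ccl5-low cells, a ratio of 18.9 (11.6 to 32.8). Klre1 had 225 and 2 UMIs.

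Between Nkg7-positive double-negative T cells and Ccl5-high Cd8 T cells, 5.52% of 3494 genes were called. Of the 5 receptors above 10% in both gates, Klrc2 (0.95 ± 0.25, adjusted p = 0.016) and Klrk1 (0.48 ± 0.13, adjusted p = 0.022) were called higher in the double-negative cells, and both calls were lost with DESeq2 (adjusted p = 0.55 and 0.61), when cells were thinned and without young pool 1. That of Klrc2 was also lost without platelet-bearing droplets (adjusted p = 0.084). Klrc1 (0.31 ± 0.20), Klrd1 (-0.19 ± 0.15) and Klre1 (-0.04 ± 0.20) were not called. Klrb1c, which passed through the double-negative gate alone, had 232 against 28.2 CPM over all pools, a ratio of 8.20 (5.79 to 11.9).

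Between S100a6-high and S100a6-low Cd4 T cells, 4.21% of 3444 genes were called, and no receptor reached 10% in both gates. The 3 receptors tested, Klrk1, Klrg1 and Klrd1, passed through the S100a6-high gate alone, so the 1 call among them (Klrk1) carries no weight and levels are given instead. Klrk1 had 179.9, 38.3, 186 and 0 CPM in S100a6-high cells. Pools of both ages were thus both high and low. It had 25 UMIs in S100a6-high and 14 in S100a6-low cells, a pooled ratio of 7.75 (3.88 to 16.1, counting error only). Klrg1 had 13 and 12 UMIs, a ratio of 4.70 (1.98 to 11.3), and Klrd1 had 15 and 39 UMIs, a ratio of 1.67 (0.855 to 3.10).

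Cd27, a costimulatory receptor, falls as mouse NK cells mature, so NK cells with a Cd27 UMI were set against those without, which include cells where it was missed. Of 3306 genes, 0.151% were called, and 0 of the 10 receptors by edgeR or DESeq2. In edgeR's test 1 of the 10, Klrg1, had an unadjusted p under 0.05, as did 153 of the 3306 genes. Klrg1 had 179, 128, 0 and 123 CPM in Cd27-positive and 291, 324, 566 and 265 CPM in Cd27-zero cells, so that every pool was lower in its Cd27-positive cells. The log2 difference was -1.20 ± 0.34 (edgeR adjusted p = 0.16), and adjusted p was 0.047 when edgeR's own filter on low counts chose the genes. Old pool 1 held 2 Cd27-positive NK cells.

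The comparison of ages asked whether a receptor's mRNA level differed between young and old pools within a gate. In the 5 gates that could be tested 0 were called, with DESeq2 as with edgeR, Benjamini-Hochberg adjustment over all genes tested and n = 2 pools per age. Of these gates, S100a6-low Cd4 T cells had no receptor that reached the 10% limit. In NK cells, where all 10 were tested, 0.0406% of 2465 genes were called, and 109 genes had an unadjusted p under 0.05. The median log2 difference, old minus young, was -0.04 over the 10 receptors and 0.01 over all genes. Of the receptors, 3 had an unadjusted p under 0.05. The log2 difference was -0.63 ± 0.27 for Klrc1, -0.40 ± 0.19 for Klrk1 and 0.66 ± 0.28 for Klrg1, each with an adjusted p of 0.998 in edgeR's test. The estimate of Klrg1 rested on old pool 1. It was -0.10 without that pool and 1.05 without old pool 2, where it was called (adjusted p = 0.018). In old pool 1, 15 of the 48 NK cells held 2 or more platelet UMIs, and without such droplets the estimate was 0.76. Lyz2 moved with age in this gate, as given above, and its part in these differences was not tested. The other receptors lay between -0.24 ± 0.23 (Klrc2) and 0.51 ± 0.37 (Klrb1b).

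**Figure D2:**
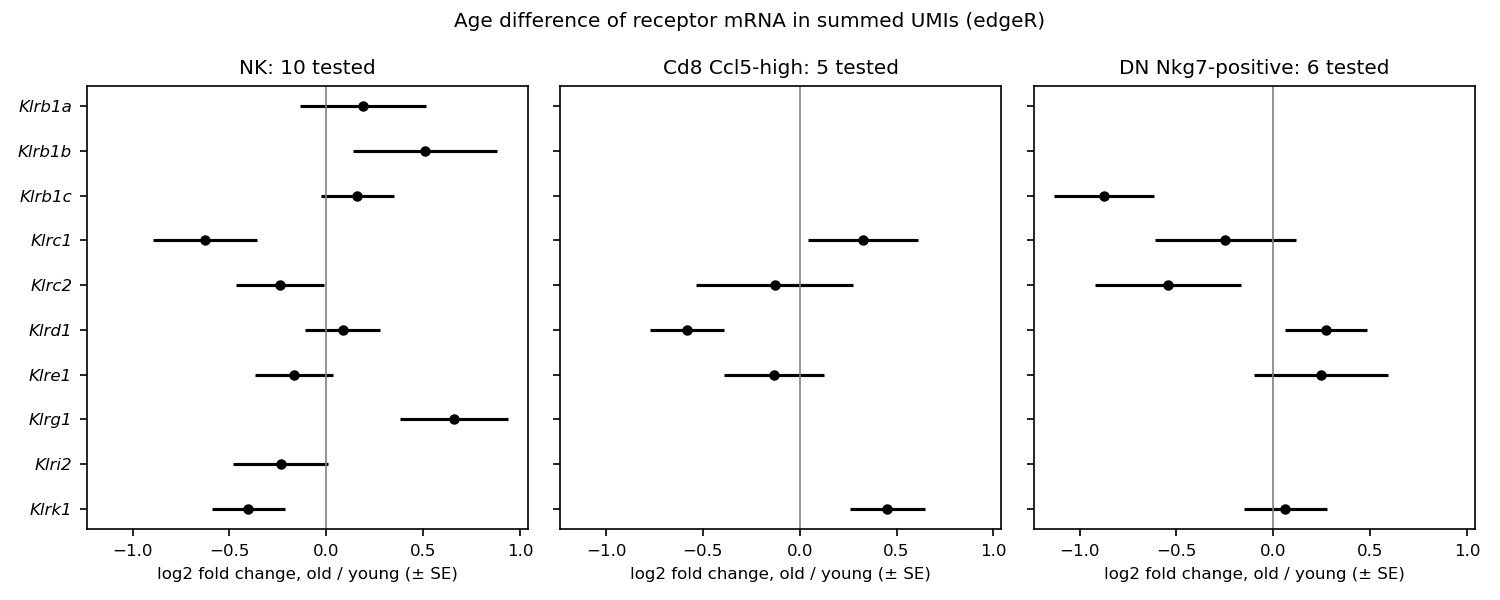
Log2 fold change of old over young (horizontal axis, points with SE bars) for the receptors tested in NK cells, Ccl5-high Cd8 T cells and Nkg7-positive double-negative T cells, from 2 young and 2 old pools. The 10, 5 and 6 receptors tested lie on both sides of 0 in each gate, and none was called.

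Shares of NK cells with a UMI were compared after cells were thinned to 1000 UMIs. Klrk1 was seen in 80.5% and 77.8% of NK cells in the young pools and in 83.3% and 68.0% in the old pools, which overlap. Klrc1 was seen in 28.5% and 22.2% of them in the young pools and in 14.6% and 16.0% in the old pools. Klrg1 was seen in 19.5% and 20.0% in the young pools and in 35.4% and 24.0% in the old pools. The ages did not overlap for Klrc1, Klre1 and Klrg1. An exact two-sided permutation test of 2 against 2 pools cannot go below p = 0.33, which these 3 reached. By order alone 2 against 2 pools lie apart at that rate, and the share of all genes without overlap is not given. Without thinning, the Klrc1 shares overlapped, within 28.0% to 35.4% over the 4 pools. The Klre1 shares changed order, from lower in the old pools with thinned cells (52.0% to 64.2% over the 4 pools) to higher without thinning (81.3% to 92.0%).

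**Figure D3:**
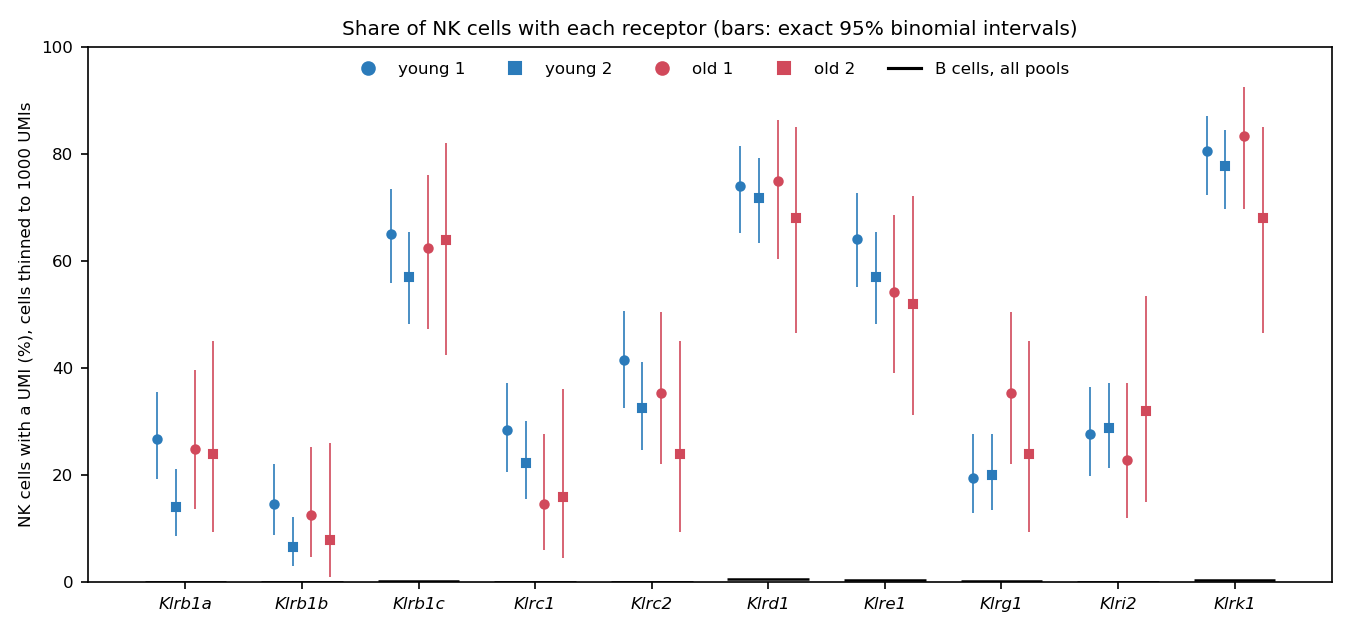
Share of NK cells with a UMI of each receptor after thinning to 1000 UMIs per cell (points, one per pool, with exact 95% binomial intervals for counting error), and the share of B cells of all pools (black lines). Shares run from 6.67% (Klrb1b, young pool 2) to 83.3% (Klrk1, old pool 1), all above the B cell lines.

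In Ccl5-high Cd8 T cells, 0.558% of 2867 genes were called with age, 5 receptors were tested and 0 were called. At an unadjusted p under 0.05 there were 2 of the 5 receptors and 210 of the 2867 genes. Klrd1 had 388 and 467 CPM in young and 315 and 275 CPM in old pools, with the old pools lower. The log2 difference was -0.58 ± 0.19 (edgeR adjusted p = 0.40), and without young pool 1 it was called (adjusted p = 0.037). Klrk1 differed by 0.45 ± 0.19 (edgeR adjusted p = 0.61), but by -0.39 when cells were thinned. The platelet genes summed to between 0 and 8.24 CPM in young and 363 and 539 CPM in old pools of this gate. The old pools had 18 and 11 such droplets with 2 or more platelet UMIs, and the young pools 0.

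In Nkg7-positive double-negative T cells, 0.2% of 2495 genes were called, 6 receptors were tested and 0 were called. At an unadjusted p under 0.05 there were 168 of the 2495 genes and 1 of the 6 receptors. That was Klrb1c, given by pool above, with a log2 difference of -0.87 ± 0.26 (edgeR adjusted p = 0.32). In S100a6-high Cd4 T cells 0.085% of 2353 genes were called and Klrd1 alone could be tested (0.87 ± 0.76). In S100a6-low Cd4 T cells 0.298% of 2346 genes were called and no receptor reached the limit. Ccl5-low Cd8 T cells had no test, since old pool 1 held 5 of them.

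Whether the age difference itself differed between NK and Ccl5-high Cd8 T cells was tested with an interaction term for the 5 receptors found in both. Of 2201 genes, 0.545% were called, and 0 of the 5 receptors. An unadjusted p under 0.05 was found for 3 of the 5 receptors and for 144 of the 2201 genes. For Klrk1 the age difference in NK cells minus that in Cd8 T cells was -0.84 ± 0.27 on the log2 scale (edgeR adjusted p = 0.23). It was called when library size alone scaled the sums (adjusted p = 0.015). The Klrk1 age difference in Cd8 T cells, part of this term, turned to -0.39 when cells were thinned. The terms were -0.94 ± 0.36 for Klrc1 and 0.68 ± 0.27 for Klrd1, both with an adjusted p of 0.49 in edgeR's test.

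The partners of the receptors were described from lists of 15 adaptors and signalling genes, 14 ligands, of which 13 were listed, and 8 other lectin genes of the complex, of which 5 were listed. None was called with age in any gate, where 9 to 13 adaptors, 5 or 6 ligands and 1 other lectin gene were tested. Against Ccl5-high Cd8 T cells, NK cells were higher for 5 and lower for 2 of 14 adaptors tested, where 21.7% of all genes were called. A gene of these lists, like a receptor, could enter a test of gates through one gate alone. Tyrobp, which codes for DAP12, the adaptor of NKG2C, had 3899 and 3436 CPM in young and 4398 and 2994 CPM in old NK cells, and 77.0 to 113 CPM in the Cd8 T cells, with no overlap (log2 difference 5.04 ± 0.18). Fcer1g, a second adaptor, differed by 4.54 ± 0.17. Hcst, which codes for DAP10, the adaptor of NKG2D, had 778 to 924 CPM in NK and 805 to 902 CPM in Cd8 T cells, ranges that overlap. Syk, Plcg2 and Pik3r1 were higher in NK cells, and the T cell kinases Zap70 (-0.76 ± 0.22) and Lck (-0.40 ± 0.14) were lower.

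H2-T23, which codes for the Qa-1 heavy chain that CD94 pairs bind, had 173 to 212 CPM in NK cells. Clec2d, which codes for Clr-b, the ligand of Klrb1b, had 12.3 to 91.9 CPM in them. Among 6 ligands tested between NK and Ccl5-high Cd8 T cells, Clec2i was lower in NK cells (-1.13 ± 0.33). Of the other lectin genes, Klrb1f was higher in NK cells (3.63 ± 0.32) and Cd69, an early activation gene, was lower (-1.87 ± 0.25). Between Ccl5-high and Ccl5-low Cd8 T cells, Hcst (0.68 ± 0.19), Fcer1g (1.74 ± 0.33) and Fyn (0.86 ± 0.25) of 12 adaptors were higher in the Ccl5-high cells, where 4.24% of all genes were called. In Nkg7-positive double-negative cells Tyrobp, Fcer1g and, among the ligands, H2-K1 were higher than in Ccl5-high Cd8 T cells (2 of 12 adaptors and 1 of 6 ligands, where 5.52% of all genes were called), and in S100a6-high Cd4 T cells Tyrobp, 1 of 12 adaptors, was higher than in S100a6-low ones (1.61 ± 0.46), where 4.21% of all genes were called.

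Single NK cells carried several of the receptors at once. After thinning, an NK cell had a UMI of 4.42 and 3.88 of the 10 genes on average in young and 4.21 and 3.80 in old pools. At least 3 were found in 80.0% to 91.9% of NK cells. Nkg7-positive double-negative T cells had 1.11 to 1.47 and Ccl5-high Cd8 T cells 0.789 to 1.03 receptors per cell, and B cells at most 0.0409.

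**Figure D4:**
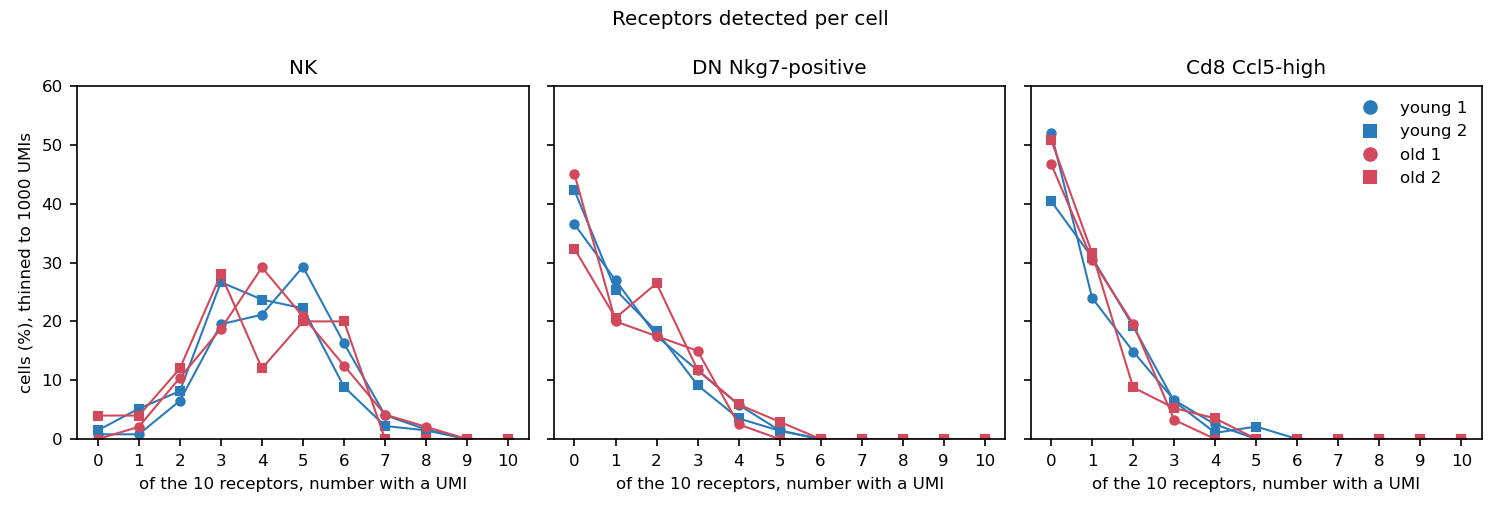
Percentage of cells (vertical axis) by the number of the 10 receptors with a UMI (horizontal axis) after thinning to 1000 UMIs, in 3 gates, with 1 line per pool. NK cells peak at 3 to 5 receptors in the young pools, while both T cell gates peak at 0.

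Whether receptors fell on the same cells was described for Klrc1 and the receptors beside it. Of Ccl5-high Cd8 T cells with a Klrc1 UMI, 53.1% had a Klre1 UMI and 36.5% a Klrc2 UMI, against 25.7% and 10.4% of cells without Klrc1. Median depth was 3757 UMIs in cells with and 3283.5 UMIs in cells without Klrc1. In Nkg7-positive double-negative T cells the shares with Klre1 were 53.1% and 19.5%, and those with Klrk1 77.1% and 42.8%. Median depth there was 2998.5 and 2738 UMIs. In NK cells, with 2455 and 1975.5 UMIs, 85.3% of cells with and 81.5% of cells without Klrc1 had Klre1. These are descriptions over cells of all pools, and the cells of a pool are not replicates. Klrc1 and Klrc2 share part of their 3′ sequence, and its part in the overlap of that pair was not tested.

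The gene outside the 10 whose level was most like each receptor was found over 36 sums (9 gates in 4 pools), by Pearson's r of log2(CPM + 10). These points share pools and depth, so r is a description. Klrc1 and Klre1 were most like Samd3 (r = 0.96 and 0.94), Klrc2 like Dapk2 (0.95), and Klrb1c and Klrk1 like Gzmb (0.91 and 0.93). Klri2 was most like Klra4, a Ly49 gene (0.95), Klrb1a like Cma1 (0.99), Klrb1b like Itga2 (0.88) and Klrd1 like Nkg7 (0.92), which set gates. Klrg1 was most like Lgals1, with the lowest r of the 10 (0.82).

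In T cells Klrg1 was followed by gate. In Nkg7-low double-negative T cells a UMI was found in 0.565% of 354 and 1.18% of 339 cells of the young pools, and in 15.6% and 21.9% of the 64 cells of each old pool. The make-up of this gate moved with age as well. Among its cells without Klrg1, S100a6 had a UMI in 18.5% and 20.0% in the young pools against 87.0% and 72.0% in the old pools, and Gata3 in 13.6% and 16.7% against 35.2% and 40.0%. Among those of its cells that had an S100a6 UMI (67 and 71 cells of young pools, 57 and 49 of old pools), Klrg1 was found in 2.99% and 5.63% against 17.5% and 26.5%, a comparison added after the data were seen. The levels over the whole gate were 8.81 and 4.56 CPM in young and 149 and 185 CPM in old pools. The exact binomial intervals of the shares did not overlap between ages (at most 2.99% in young and at least 7.76% in old), but they cover counting error only. The permutation test of the thinned shares (0.565% and 0.295% against 6.25% and 7.81%) gave its smallest possible p of 0.33 for 2 against 2 pools. Klrg1 did not reach 10% of the young cells, and no test across genes had been set for this gate. The old minus young difference was 17.9 percentage points, but 6.60 points after thinning. It lay between 17.2 and 20.2 points with other limits on Cd3 and Nkg7, or without platelet-bearing or the deepest droplets. In cells with an S100a6 UMI it was 17.7 points, but from the higher young shares given above. Median depth was 2433 and 2483.5 UMIs in young and 2157 and 2569.5 UMIs in old cells of this gate.

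Other T cell gates gave smaller or less even differences for Klrg1. In Ccl5-high Cd8 T cells the shares were 6.61% and 1.06% in young and 9.78% and 8.77% in old pools. In Nkg7-positive double-negative cells they were 3.65% and 4.23% in young and 7.50% and 17.6% in old pools. In S100a6-high Cd4 T cells a UMI was found in 3 of 17, 2 of 16, 3 of 25 and 0 of 16 cells, and 0 of 16 allows a share of up to 18.8% by the limit of 3 counts and 20.6% by the exact interval. Among Ccl5-low Cd8 T cells, 3 of 13 had a Klrg1 UMI in old pool 2. None had one among 218 and 109 cells of the young pools and 5 cells of old pool 1.

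The granzyme gene Gzmk, found in a kind of memory T cell, had at least 2 UMIs in 6 and 11 T cells of the young and 23 and 23 of the old pools, and Klrg1 was found in 2 of 6, 0 of 11, 3 of 23 and 4 of 23 of them. Klrk1 was found in 66.7% and 63.6% of those cells in young blood against 4.35% and 21.7% in old blood, without overlap. Klrc1 also lay apart, in 3 of 6, 7 of 11, 3 of 23 and 5 of 23 cells. So did Klrc2, in 1, 3, 1 and 0 cells. These shares were not thinned, and median depth was 1915 and 4249 UMIs in young and 2466 and 2332 UMIs in old pools. They rest on few cells, no test had been set for this gate, and the share of all genes without overlap is not given. Cd4 T cells with a Foxp3 UMI numbered 9, of which 0 had a Klrg1 UMI and 1 had a Klrd1 UMI.

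**Figure D5:**
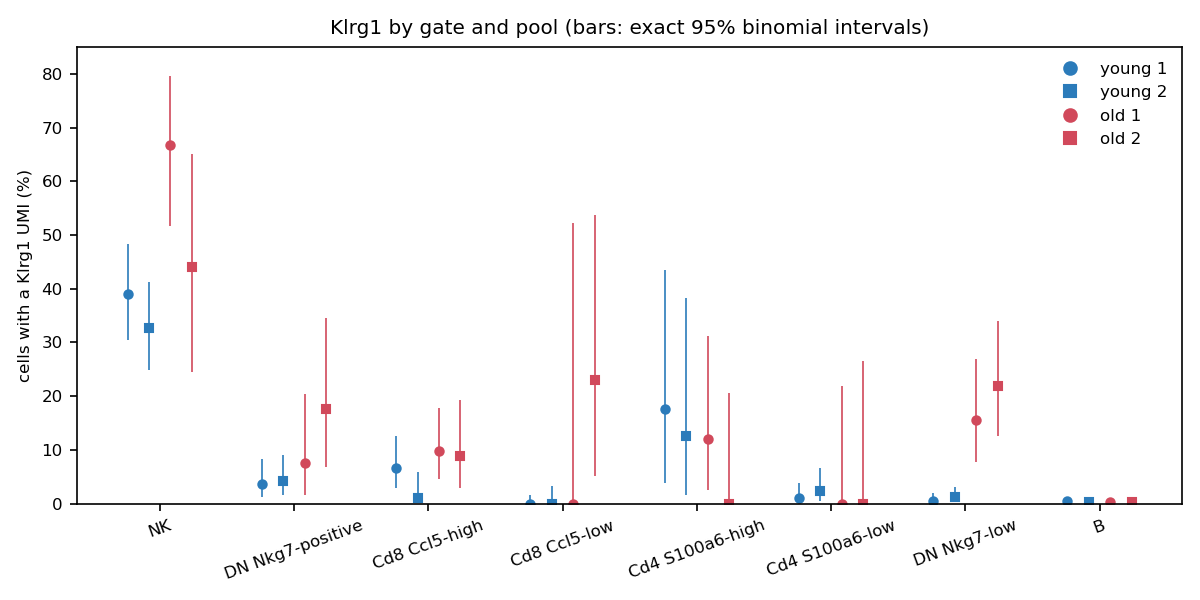
Share of cells with a Klrg1 UMI by gate (points, one per pool, not thinned, with exact 95% binomial intervals for counting error). Old pools stand above young pools in Nkg7-low double-negative T cells (15.6% and 21.9% against 0.565% and 1.18%), while B cells stay at 0.420% or below.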

How the data were processed

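The authors used Cell Ranger and mm10 to count UMIs, combined the duplicates of each age, filtered cells for Seurat 2.3.0 and deposited raw UMI counts per gene and cell, used here as deposited. The annotation release, and whether depth was equalised between duplicates, were not given in the sources used here. Pools came from the deposited cell list. No doublet caller was run, and cells with more than 1 B cell UMI were kept out of NK and T gates. Between 27.1% and 36.0% of each receptor's UMIs fell outside these gates.

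Shares were given raw and after thinning each cell to 1000 UMIs, with exact 95% intervals. A count of 0 was taken to allow 3 counts. Pool sums were fitted with edgeR 4.0.16 (quasi-likelihood, TMM, Benjamini-Hochberg over all genes tested, threshold 0.05), checked on simulated counts. Genes needed a UMI in at least 10% of cells of each age, of either gate or, for the interaction, of each gate and age, and age tests needed 10 cells per pool. DESeq2 1.42.0, other scaling, filters, gate limits and leaving out each pool were alternatives. Allowing 3 B cell UMIs, leaving out haemoglobin genes and the settings for Klrg1 were chosen after seeing the data.

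Named were all 10 receptors, the called genes of 3 lists, Hcst, Tyrobp and Fcer1g, and the gene most like each receptor, while H2-T23, Clec2d and Klri1 were named after their values were seen. The receptors and lists were chosen with earlier results of these data known. P-values measure the spread between pools, of which each age had 2. R 4.3.3 and Python 3.11.15 were used.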

Additional observations from a re-analysis of the deposited data

Results flagged for a closer look

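Klrb1c and Klri2 were picked out because both old pools lay on one side of both young pools in one gate and on the opposite side in another. Klrb1c was slightly higher in old NK cells (log2 ratio of mean CPM plus 10, 0.06) and lower in old Nkg7-positive double-negative T cells (-0.79), a difference of 0.85, and in old Ccl5-high Cd8 T cells (-0.31), a difference of 0.37. Klri2 was lower in old NK cells (-0.32) and higher in old Nkg7-positive double-negative T cells (0.65), a difference of -0.97, where it had between 4 and 13 UMIs per pool. These differences between gates were not tested. With so few pools per age, opposite orders in a pair of gates can also arise by order alone. The number of pairs of gates screened for the receptors is not given, nor is the share of all genes that meet this rule. Klrk1 also lay on opposite sides, lower in old NK and higher in old Ccl5-high Cd8 T cells. There the difference was tested in the interaction given above and was not called with TMM scaling. Its fitted age difference in the Cd8 T cells turned negative when cells were thinned.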

How the results depend on the processing

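Under other settings 155 counts of receptors (those called, or those whose shares did not overlap) were within 1.5 times the reported count and 13 were not. Most of the reported counts were 0, and those between gates include receptors that entered through one gate alone. The tally is therefore no measure of how firm a result is. With DESeq2 the count called between S100a6-high and S100a6-low Cd4 T cells was 0 (1 in the edgeR fit, Klrk1, which entered through the S100a6-high gate alone) and that between Nkg7-positive double-negative and Ccl5-high Cd8 T cells was 1 (3 in the edgeR fit, of which Klrb1c entered through one gate alone), and both counts were the same (0 and 1) with thinned cells. With filterByExpr the Cd4 count was 0, since it kept 0 receptors, and that between NK cells with and without Cd27 was 1. With library size alone the interaction count was 1. Leaving out each pool in turn gave 0 to 1 called with age in NK cells and in Ccl5-high Cd8 T cells, 0 to 2 between the Cd4 gates and 1 to 3 between double-negative and Ccl5-high Cd8 T cells. The age difference of Klrg1 in NK cells was -0.10 without old pool 1, a range of -0.10 to 1.05 over the pools left out, and that of Klrk1 in Ccl5-high Cd8 T cells turned to -0.39 with thinned cells. The Klrg1 difference in Nkg7-low double-negative T cells was 6.60 points after thinning. Shares of NK cells did not overlap between ages for 3 receptors with thinned and 4 with raw UMIs, but the sets differed. The thinned set was Klrc1, Klre1 and Klrg1, and the raw set Klrb1b, Klrd1, Klre1 and Klrg1. Klre1 was lower in the old pools with thinned and higher with raw UMIs, so Klrg1 alone kept its direction. The share of all genes without overlap is not given.

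With the replicate block, 0 receptors were called with age in each of the 5 gates, as without it. In S100a6-low Cd4 T cells that count was fixed in advance, since no receptor was tested there, and in S100a6-high ones Klrd1 alone was tested. The numbers do not pair the pools, since deviations of same-numbered pools had r between -0.07 and 0.03 over genes. No age test in Ccl5-low Cd8 T cells was run, nor in the Cd4 gates with S100a6 limits of 4 (high) and 1 (low), where a pool held under 10 cells. The old pools held 48 and 25 NK cells, and the effect of cell number on calls was not tested.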

Other observations

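The Klrg1-positive cells of the Nkg7-low double-negative T gate were described further with genes chosen after their values were seen, in old pools 1 and 2 with 10 and 14 such cells. Gata3, a transcription factor of type 2 helper and regulatory T cells, had a UMI in 80.0% and 64.3% of them, against 35.2% and 40.0% of the cells without Klrg1. Tnfrsf4, which codes for the costimulatory receptor OX40, had one in 30.0% and 64.3% against 9.26% and 14.0%. Il1rl1, which codes for the receptor of interleukin 33, had one in 20.0% and 35.7% against 1.85% and 6.00%, and Ccr2, a chemokine receptor, in 30.0% and 64.3% against 11.1% and 20.0%. Foxp3, the regulatory T cell factor, was found in 40.0% and 7.14% against 3.70% and 4.00%, so the pools differed. Ikzf2 was found in 80.0% and 14.3% against 40.7% and 26.0%, higher with Klrg1 in 1 pool and lower in the other. Cd27 went the other way, with 40.0% and 35.7% against 55.6% and 50.0%. S100a6 was found in most cells either way, in 100% and 92.9% against 87.0% and 72.0%. Cd40lg (20.0% and 21.4% against 11.1% and 16.0%) and Ccl5 (30.0% and 21.4% against 38.9% and 18.0%) were the remaining genes looked at, beside Cd4, which the gate sets to 0. Median depth was 2688 and 2721 UMIs in cells with Klrg1 and 2145.5 and 2462.5 UMIs in cells without. The young pools held 2 and 4 such cells. The part of depth in these shares was not tested.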
